A study of Felis catus with 15 samples.

Results

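The plasminogen activators and their inhibitors are described here as 6 listed genes of the domestic cat (Felis catus), measured by RNA-seq in the epididymal corpus, the stretch of the sperm-maturing duct between its caput and cauda. The genes are PLAU (NCBI gene 101098338), PLAT (101100299), PLAUR (101091240), ANXA2 (101093022), SERPINE2 (101084306) and SERPINB2 (101085412). They were taken by symbol from a table of 38995 genes, of which 18038 had enough counts to be tested. All 6 were in the table and all 6 passed that filter. The genes were chosen by their roles, with their differences between cultured and fresh tissue in these same libraries already known. For that reason the differences between cultured and fresh tissue are given for them as a description, with no p-value read as a test.

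The 15 libraries formed 3 groups of 5. In the first, pieces of corpus were cultured with extracellular vesicles (EVs), the small membrane-bound particles that cells release, and the series text names the caput, which lies upstream, as their source. In the second, pieces of corpus were cultured with no EVs added. The third was fresh corpus tissue. The label codes hold D3 for both cultures and D0 for fresh tissue, and neither their meaning nor the strain, genotype, age or number of animals is stated in the labels. The study set out to find what caput EVs do to the transcriptome of cultured corpus tissue. Libraries are called by group and by the number in their label, as in culture 3. The sources do not say whether a number marks an animal, so each p-value reflects only how far these samples spread, which may be technical.

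Plasminogen is a secreted proenzyme that 2 serine proteases convert into plasmin: the urokinase-type activator, encoded by PLAU, and the tissue-type activator, encoded by PLAT. Plasmin dissolves fibrin and cuts other extracellular proteins, and it activates several matrix metalloproteinases. The urokinase receptor, encoded by PLAUR, holds urokinase at the cell surface, and annexin A2, encoded by ANXA2, forms a complex with S100A10 that binds plasminogen and the tissue-type activator. Serine protease inhibitors (serpins) trap the activators, among them SERPINB2 (plasminogen activator inhibitor 2) and SERPINE2 (protease nexin 1, which also traps thrombin), while SERPINF2 traps plasmin itself. In rodents and other mammals, plasminogen activators have been found in the male tract and on sperm.

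Total counts were 17308832 to 27420218 in culture with EVs, 19308190 to 25454399 in culture and 17751507 to 24841100 in fresh tissue. The mitochondrially encoded protein genes took 6.40% to 7.26% of counts in culture with EVs and 8.69% to 11.4% in fresh tissue. Culture 3 stood apart at 0.179%, against 6.23% to 7.48% in the other 4 cultures, and the means of the 6 genes in culture are also given without it. Without culture 3, 11090 genes passed the threshold used below between culture and fresh tissue, against 9786 with it. Levels are in CPM, counts scaled to the effective size of the library. They are compared between libraries for 1 gene at a time and not between genes, because transcript lengths were not used.

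All 6 genes averaged higher in both cultures than in fresh tissue, and none differed detectably between culture with EVs and culture. For PLAU, PLAT, PLAUR, ANXA2 and SERPINE2, the lowest cultured library lay above the highest fresh library, whereas SERPINB2 overlapped. Of all tested genes, 20.2% had every library of culture above every fresh one, and 25.3% every library of culture with EVs. The share for both cultures together was not computed. The genes were chosen with these contrasts known, so nothing is read from this count. Within a gene, the order of the group means was not resolved between the 2 cultures, and fresh tissue was the lowest group for each. In bulk tissue, a change in the number of cells of a type and a change in RNA per cell cannot be told apart.

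**Figure D1:**
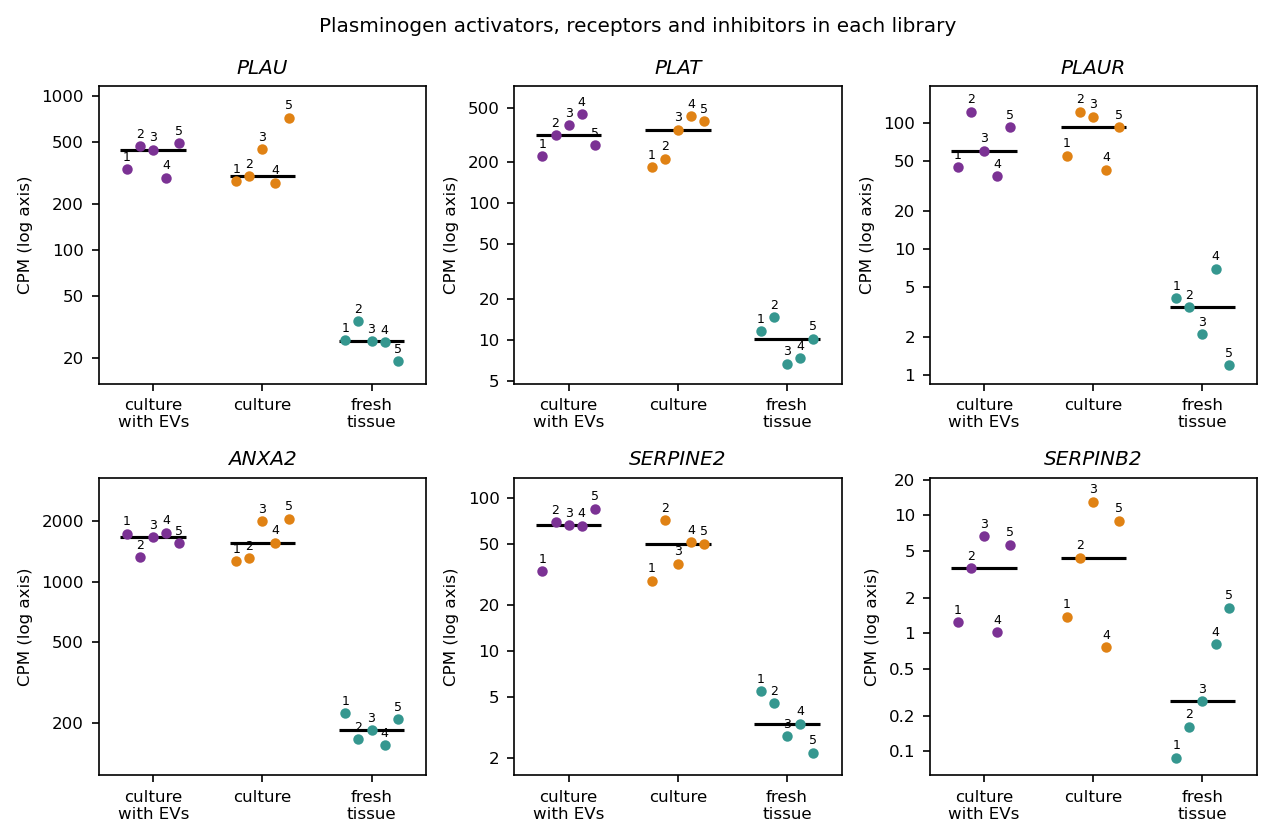
Level of each of the 6 genes in every library, in CPM on a log axis, with 5 libraries per group; points carry the number in the library's label and the bar is the group median. Both cultures sit above fresh tissue with a gap in between for 5 genes, and SERPINB2 is the exception, with fresh 5 at 1.65 CPM above culture 1 at 1.38 CPM.

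PLAU, the urokinase gene, was at 333, 472, 446, 294 and 494 CPM in culture with EVs 1 to 5. It was at 278, 301, 450, 273 and 722 CPM in culture 1 to 5, and at 26.0, 34.5, 25.7, 25.3 and 19.1 CPM in fresh tissue 1 to 5. The lowest cultured library, culture 4, was far above the highest fresh library, fresh 2, and culture 5 was the highest of all. The mean was 408 ± 88.9 CPM in culture with EVs, 405 ± 192 CPM in culture and 26.1 ± 5.50 CPM in fresh tissue (SD, n = 5 each). The fitted log2 fold change was 3.95 for culture over fresh tissue (95% interval 3.32 to 4.58), a 15.5-fold difference, and 3.96 for culture with EVs over fresh tissue (95% interval 3.33 to 4.59).

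PLAT, the gene of the tissue-type activator, had the largest fitted difference of the 6 genes. It was at 221, 316, 374, 450 and 267 CPM in culture with EVs 1 to 5. It was at 183, 211, 345, 434 and 396 CPM in culture 1 to 5, and at 11.5, 14.7, 6.69, 7.33 and 10.2 CPM in fresh tissue 1 to 5. The library numbered 4 was the highest in both cultures and the library numbered 1 the lowest in both. The mean was 326 ± 89.8 CPM in culture with EVs, 314 ± 111 CPM in culture and 10.1 ± 3.26 CPM in fresh tissue (SD, n = 5 each). On the log2 scale the fold change was 4.96 for culture over fresh tissue (95% interval 4.26 to 5.65), a 31.1-fold difference, and 5.01 for culture with EVs over fresh tissue (95% interval 4.32 to 5.71).

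The balance between the activators was read as the ratio of PLAT to PLAU counts within a library, which does not depend on scaling but is not a ratio of molecules. The ratio was 0.663, 0.670, 0.839, 1.53 and 0.541 in culture with EVs 1 to 5. It was 0.659, 0.701, 0.766, 1.59 and 0.548 in culture 1 to 5, and 0.441, 0.427, 0.260, 0.290 and 0.532 in fresh tissue 1 to 5. Every cultured library was above every fresh one, by a narrow margin between culture with EVs 5 and fresh 5. Libraries with the same number in the 2 cultures had nearly the same ratio. The library numbered 4 stood far above the others in both cultures, with PLAT counts exceeding PLAU counts in these libraries only, whereas fresh 4 was among the lowest.

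**Figure D2:**
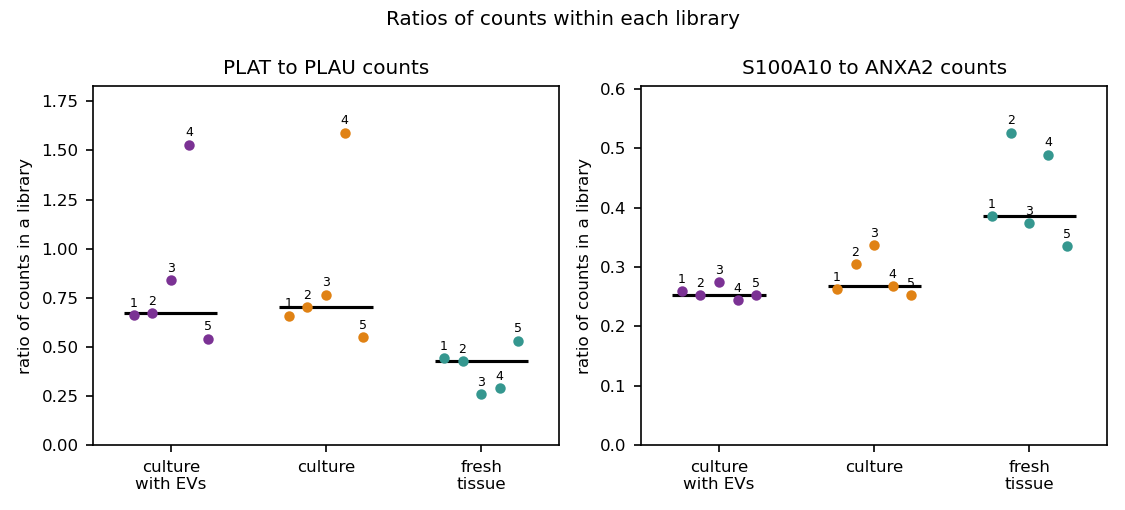
Ratio of PLAT to PLAU counts and of S100A10 to ANXA2 counts in each library, on linear axes from 0, with 5 libraries per group; points carry the number in the library's label and the bar is the group median. The PLAT to PLAU ratio is 1.53 in culture with EVs 4 and 1.59 in culture 4 and stays under 1 elsewhere, and the S100A10 to ANXA2 ratio is 0.244 to 0.274 in culture with EVs, 0.252 to 0.337 in culture and 0.335 to 0.526 in fresh tissue.

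PLAUR, the receptor gene, was at 44.6, 124, 60.8, 38.1 and 93.7 CPM in culture with EVs 1 to 5. It was at 55.5, 124, 113, 42.8 and 93.5 CPM in culture 1 to 5, and at 4.04, 3.45, 2.11, 6.98 and 1.19 CPM in fresh tissue 1 to 5. The number that was highest in fresh tissue, 4, was the lowest in both cultures, and number 2 was the highest in both. The mean was 72.3 ± 36.1 CPM in culture with EVs, 85.6 ± 35.2 CPM in culture and 3.55 ± 2.22 CPM in fresh tissue (SD, n = 5 each). The fitted value, a log2 fold change, was 4.59 for culture over fresh tissue (95% interval 3.54 to 5.65), a 24.2-fold difference, and 4.35 for culture with EVs over fresh tissue (95% interval 3.30 to 5.40). Taken number by number, the ratio of culture to fresh tissue ran between 6.13 for number 4 and 78.9 for number 5. The size of the difference thus varied widely while its direction did not. The ratio of number 5 rests on 23 PLAUR counts in fresh 5. Over all tested genes, number 3 of culture and of fresh tissue correlated at 0.033 only, so the numbers may not pair these 2 groups.

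ANXA2, the docking gene, varied least between libraries of a group. It was at 1723, 1321, 1661, 1747 and 1552 CPM in culture with EVs 1 to 5. It was at 1263, 1303, 1981, 1556 and 2042 CPM in culture 1 to 5, and at 224, 166, 184, 155 and 209 CPM in fresh tissue 1 to 5. The lowest cultured library, culture 1, was several times above the highest fresh library, fresh 1. The mean was 1601 ± 174 CPM in culture with EVs, 1629 ± 367 CPM in culture and 187 ± 28.9 CPM in fresh tissue (SD, n = 5 each). Its log2 fold change was 3.12 for culture over fresh tissue (95% interval 2.74 to 3.50), an 8.69-fold difference, and 3.09 for culture with EVs over fresh tissue (95% interval 2.71 to 3.48). The labels do not say how reads that match several genes were counted, so the ANXA2 level may hold reads of similar copies.

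S100A10 (gene 101082765), which encodes the partner of annexin A2, was also higher in both cultures, by less than ANXA2. It was at 446, 335, 455, 427 and 390 CPM in culture with EVs 1 to 5. It was at 333, 398, 667, 417 and 514 CPM in culture 1 to 5, and at 86.4, 87.1, 68.9, 75.7 and 70.0 CPM in fresh tissue 1 to 5. The groups of cultured and fresh libraries did not overlap. The log2 fold change was 2.58 ± 0.18 (SE) for culture over fresh tissue (edgeR adjusted p = 3.27e-08) and 2.40 ± 0.18 for culture with EVs over fresh tissue (edgeR adjusted p = 5.62e-08). The ratio of S100A10 to ANXA2 counts averaged 0.256 ± 0.0112 in culture with EVs, 0.285 ± 0.0352 in culture and 0.422 ± 0.0814 in fresh tissue (SD, n = 5 each). The ranges of culture with EVs and fresh tissue did not overlap, and culture 3 at 0.337 lay just above fresh 5 at 0.335.

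SERPINE2, the gene of protease nexin 1, was at 33.3, 69.7, 66.5, 66.2 and 85.7 CPM in culture with EVs 1 to 5. It was at 28.9, 72.0, 37.4, 51.5 and 50.6 CPM in culture 1 to 5, and at 5.44, 4.58, 2.77, 3.35 and 2.16 CPM in fresh tissue 1 to 5. Number 1 was the lowest library in both cultures and the highest in fresh tissue. The mean was 64.3 ± 19.1 CPM in culture with EVs, 48.1 ± 16.4 CPM in culture and 3.66 ± 1.34 CPM in fresh tissue (SD, n = 5 each). Fitted as a log2 fold change, the difference was 3.71 for culture over fresh tissue (95% interval 3.02 to 4.40), a 13.1-fold difference, and 4.13 for culture with EVs over fresh tissue (95% interval 3.42 to 4.83).

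SERPINB2, the gene of plasminogen activator inhibitor 2, was the least abundant of the 6 in counts and the most variable. Its counts were 35, 82, 164, 26 and 100 in culture with EVs 1 to 5, or 1.25, 3.56, 6.64, 1.02 and 5.64 CPM. They were 35, 96, 253, 19 and 171 in culture 1 to 5 (1.38, 4.39, 13.1, 0.760 and 9.01 CPM), and 2, 4, 6, 14 and 32 in fresh tissue 1 to 5 (0.0878, 0.161, 0.264, 0.808 and 1.65 CPM). Fresh 4 lay above culture 4, and fresh 5 lay above number 1 and number 4 of both cultures. The mean was 3.62 ± 2.53 CPM in culture with EVs, 5.73 ± 5.27 CPM in culture and 0.594 ± 0.654 CPM in fresh tissue (SD, n = 5 each). The log2 fold change was 3.29 for culture over fresh tissue, with a 95% interval of 1.37 to 5.20, and 2.62 for culture with EVs over fresh tissue, with a 95% interval of 0.75 to 4.50.

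The SERPINB2 values leaned on single libraries more than those of the other 5 genes. The fold change of culture over fresh tissue was 2.73 without culture 3 and 4.15 without fresh 5 on the log2 scale. For culture with EVs over fresh tissue it was 2.27 without culture with EVs 3 and 3.49 without fresh 5. With limma-voom and sample quality weights, the log2 fold change of culture over fresh tissue was 2.52. Without culture 3, its mean in culture was 3.89 ± 3.77 CPM (SD, n = 4), and the means of the other 5 genes were 393 ± 219 CPM for PLAU, 306 ± 127 CPM for PLAT, 78.9 ± 36.8 CPM for PLAUR, 1541 ± 358 CPM for ANXA2 and 50.7 ± 17.6 CPM for SERPINE2.

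A gene was called at an adjusted p under 0.05 over all 18038 tested genes. Of all tested genes, 28.7% were called higher in culture than in fresh tissue and 54.3% were called in either direction, and for culture with EVs the shares were 27.4% and 52.9%. All 6 genes lay past that threshold in both contrasts, which follows from how they were chosen and is no test of them. Every library of culture was above every fresh library for 5 of the 6 genes, against 20.2% of tested genes, and for culture with EVs the count was again 5 of 6, against 25.3%. The genes were chosen with these contrasts known, and both comparisons share the fresh libraries, so nothing is read from these counts. The median log2 fold change over the 6 genes was 3.83 in culture and 4.04 in culture with EVs, beside 0.035 and 0.014 over all tested genes. For the same reason nothing is read from this gap.

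**Figure D3:**
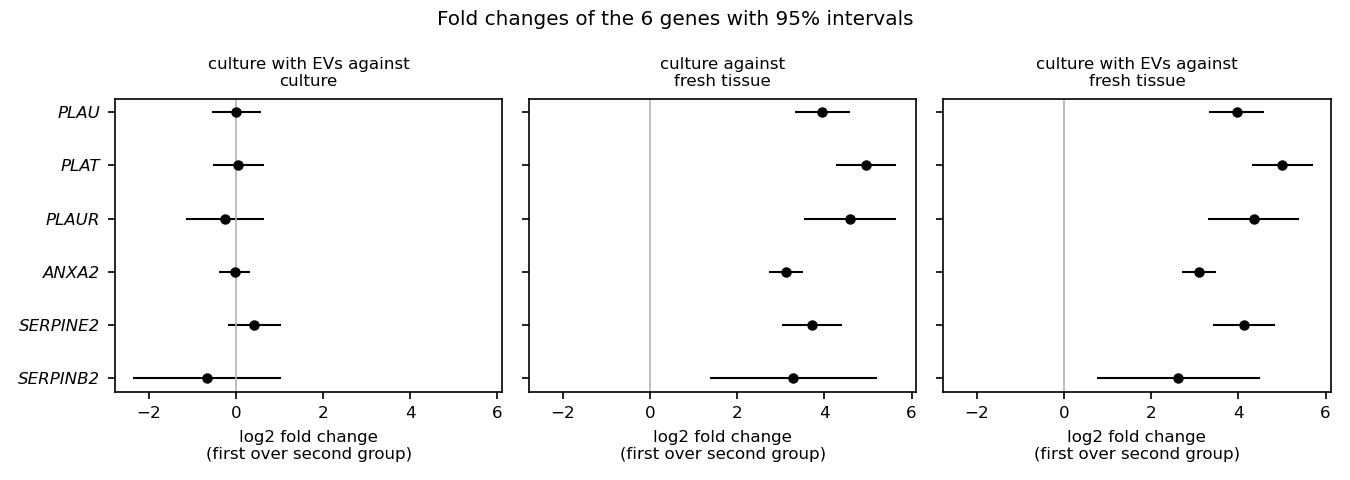
Fitted log2 fold changes of the 6 genes with 95% intervals in 3 comparisons, each the first-named group over the second, on a shared axis. All intervals against fresh tissue lie above 0, from 0.75 at the low end for SERPINB2 to 5.71 at the high end for PLAT, and all intervals for culture with EVs against culture include 0.

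Culture with EVs against culture is the comparison that the study was built on. None of the 6 genes was called, and none of the 18038 tested genes was called either (0%), with adjusted p = 1 for all 6 by edgeR's quasi-likelihood test. At an unadjusted p under 0.05, 183 genes passed (1.01%), and none of the 6 was among them. DESeq2 and limma-voom also called 0 genes, with 269 and 237 at an unadjusted p under 0.05.

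For the activators, the log2 fold change of culture with EVs over culture was 0.01 for PLAU (95% interval -0.55 to 0.57) and 0.05 for PLAT (95% interval -0.53 to 0.64). ANXA2 had the narrowest interval, at -0.03 (95% interval -0.38 to 0.33). PLAUR was at -0.24 (95% interval -1.14 to 0.65), with culture 3 the largest departure, at 113 CPM against 60.8 CPM in culture with EVs 3. These intervals leave room for differences of the sizes they span, so the data do not show that the groups were alike.

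The serpins had the largest fitted values in this comparison, in opposite directions. SERPINE2 was at 0.42 (95% interval -0.19 to 1.03, unadjusted p = 0.166, edgeR adjusted p = 1). It was higher with EVs in 4 of 5 same-numbered libraries, and the exception was number 2, at 69.7 CPM with EVs and 72.0 CPM without. SERPINB2 was at -0.66 (95% interval -2.37 to 1.04, unadjusted p = 0.421, edgeR adjusted p = 1). It was lower with EVs in 4 of 5 same-numbered libraries, and the exception was number 4, at 1.02 CPM with EVs and 0.760 CPM without. The SERPINB2 value was -0.10 without culture 3 and turned to 0.65 with limma-voom and quality weights.

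For 5 of the 6 genes, same-numbered libraries of the 2 cultures were clearly closer than differently numbered ones. This is not particular to these genes. Over all tested genes, deviations from the group means correlated at 0.181 to 0.602 between same-numbered cultures, the best match in 5 of 5. The order of numbers was not always kept, and for SERPINE2 only number 1, the lowest, held its place. SERPINB2 had the same order of numbers, from low to high, in both: 4, 1, 2, 5 and 3. PLAU and PLAUR had numbers 4 and 1 as their lowest libraries in both cultures. For SERPINB2 the mean absolute log2 difference was 0.49 between the 5 same-numbered pairs of libraries and 1.83 between the 20 pairs with different numbers. For PLAUR the values were 0.28 and 0.85, for PLAU 0.31 and 0.57, for PLAT 0.32 and 0.56, and for SERPINE2 0.44 and 0.70. ANXA2 showed little of this, at 0.26 and 0.29, and S100A10 none, at 0.33 and 0.32. Adding the number as a block to the fit left all 6 genes uncalled between the 2 cultures. The blocked log2 fold changes were 0.05 for PLAU, 0.06 for PLAT, -0.28 for PLAUR, -0.01 for ANXA2, 0.45 for SERPINE2 and -0.45 for SERPINB2. The intervals given above for this comparison are without the block.

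**Figure D4:**
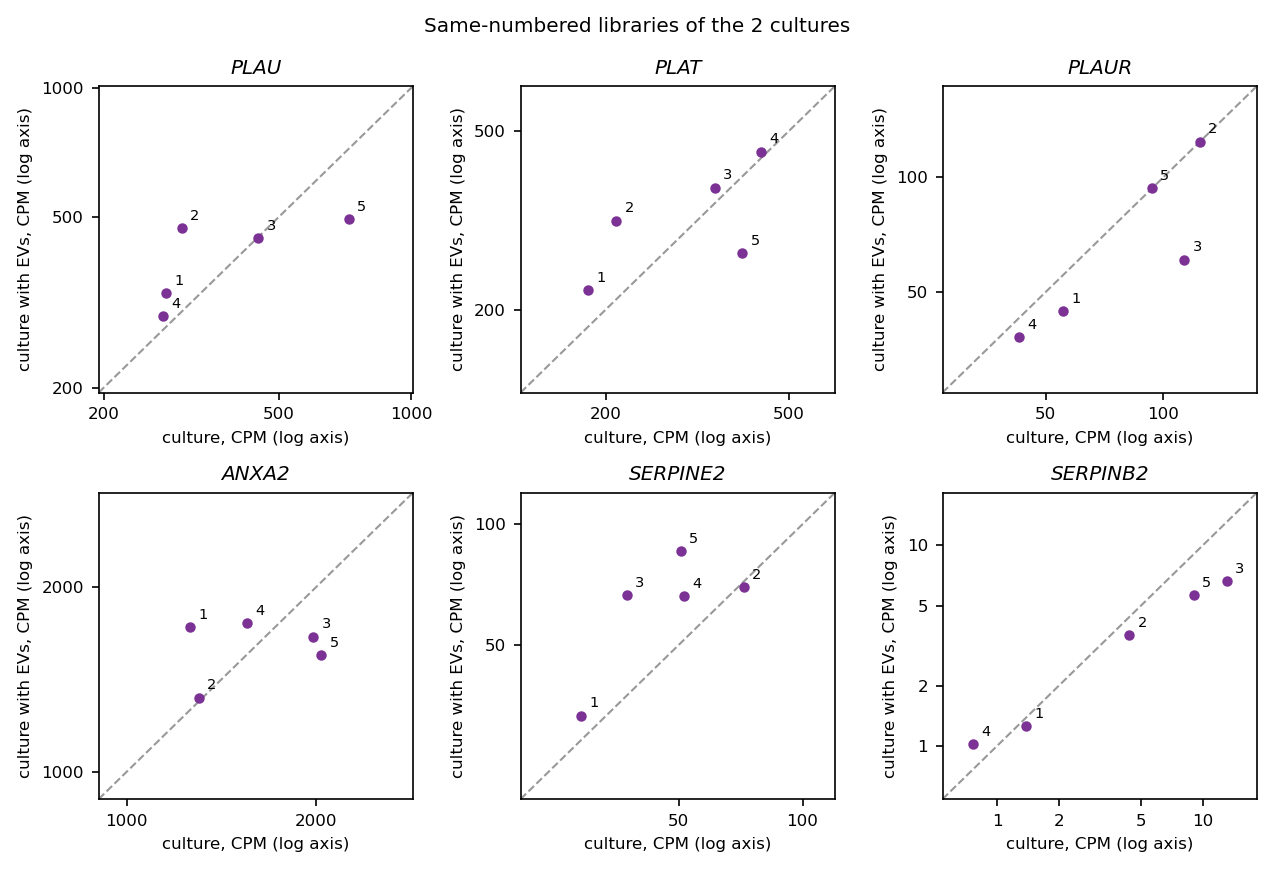
Level of each gene in culture with EVs against the level in the same-numbered culture library, in CPM on log axes, with 5 points per gene labelled by number and a dashed line of equal levels. SERPINB2 and PLAUR points spread along the line, with number 4 lowest on both axes at 1.02 and 0.760 CPM for SERPINB2, whereas ANXA2 points lie in a small cloud.

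The rest of the plasminogen system was covered by a list of 30 other genes, of which 26 were tested. In culture against fresh tissue, 11 were called higher, 7 lower and 8 not called, so that 69.2% were called against 54.3% of all tested genes. Over all tested genes, 28.7% were called higher and 25.6% lower in that comparison. The median log2 fold change of the list was 0.40. In culture with EVs against fresh tissue, 11 were higher, 8 lower and 7 not called (73.1% against 52.9%, with 25.5% of all tested genes lower), and the median was 0.11. Between culture with EVs and culture, 0 of 26 were called and the median was -0.14, beside 0 over all tested genes. Leaving out culture 5 brought the number called lower in culture against fresh tissue to 4. Calls in this list went in both directions. The list was chosen with earlier results of these data known. Its shares, and the p-values of its genes against fresh tissue, therefore describe these libraries and are no independent test.

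PLG (gene 101095261), which encodes plasminogen itself, was close to undetected and was not tested. It had 4 to 16 counts per library in culture with EVs, 3 to 12 in culture and 5 to 20 in fresh tissue. The substrate of the activators thus had few transcripts in any library, as did the fibrinogen alpha chain gene FGA, at 0 counts in all 15. The gamma chain gene FGG had at most 10 counts in a library of culture with EVs, 19 in culture and 0 in fresh tissue, and the serpin gene SERPINA5 had 2 counts in 1 library of culture with EVs and 0 elsewhere.

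Among the listed inhibitors, SERPINF2 (gene 101100166), which encodes the plasmin inhibitor, was lower in both cultures. It was at 61.1, 12.6, 18.8, 16.6 and 31.3 CPM in culture with EVs 1 to 5. It was at 49.0, 26.5, 15.6, 14.2 and 17.7 CPM in culture 1 to 5, and at 109, 89.7, 89.4, 94.3 and 46.3 CPM in fresh tissue 1 to 5. Fresh 5 was the lowest fresh library and overlapped number 1 of both cultures. On the log2 scale the fold change was -1.80 ± 0.44 (SE) for culture over fresh tissue (edgeR adjusted p = 0.00270) and -1.61 ± 0.43 for culture with EVs over fresh tissue (edgeR adjusted p = 0.00569). SERPINI1, the gene of neuroserpin, which inhibits the tissue-type activator, was low but higher in both cultures, by 1.30 ± 0.32 in culture and 1.23 ± 0.32 in culture with EVs. In culture it overlapped fresh tissue, with culture 3 at 2.75 CPM below fresh 2 at 2.81 CPM. SERPING1, A2M and CPB2, which encode broader inhibitors and a carboxypeptidase that protects fibrin, were not called against fresh tissue.

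CPB2 and A2M were called once the library number was a block. In culture with EVs against fresh tissue, the blocked log2 fold change was -2.98 for CPB2 (edgeR adjusted p = 0.00141), against -2.41 without the block, and -0.84 for A2M (edgeR adjusted p = 0.0249), against -0.88 without it. LRP8, a receptor of the low-density lipoprotein (LDL) receptor family, was called in the same way at 0.79 (edgeR adjusted p = 0.0148), against 0.71 without the block. CPB2 varied most, from 0 to 7.33 CPM in culture with EVs and from 1.39 to 36.2 CPM in fresh tissue.

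All 4 other docking genes were called against fresh tissue in both cultures. Of all tested genes, 54.3% were called in culture and 52.9% in culture with EVs. ENO1 (gene 101093622), which encodes a glycolytic enzyme that also binds plasminogen at the cell surface, was at 831, 866, 928, 706 and 931 CPM in culture with EVs 1 to 5. It was at 832, 1012, 1544, 843 and 1205 CPM in culture 1 to 5, and at 163, 181, 157, 165 and 158 CPM in fresh tissue 1 to 5. Its log2 fold change was 2.72 ± 0.17 (SE) for culture over fresh tissue (edgeR adjusted p = 1.59e-08) and 2.37 ± 0.17 for culture with EVs over fresh tissue (edgeR adjusted p = 4.30e-08). ENO1 was also the only listed gene at an unadjusted p under 0.05 between the 2 cultures. There its log2 fold change was -0.35 ± 0.16 (unadjusted p = 0.0475, edgeR adjusted p = 1). It was higher with EVs in 0 of 5 same-numbered libraries, with number 1 all but level at 831 and 832 CPM. This count was not tested. The fold change was -0.19 without culture 3 and -0.10 with limma-voom and quality weights.

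HMGB1, a nuclear protein gene whose product can bind plasminogen outside the cell, was higher in both cultures, by 1.01 ± 0.14 in culture and 0.91 ± 0.14 in culture with EVs. PLGRKT, a plasminogen receptor gene, was lower. It was at 54.0, 47.3, 57.6, 61.3 and 50.1 CPM in culture with EVs 1 to 5, at 44.1, 46.3, 20.1, 65.7 and 70.5 CPM in culture 1 to 5, and at 98.3, 104, 117, 107 and 143 CPM in fresh tissue 1 to 5. Culture 3 was the lowest library, and no cultured library reached the lowest fresh one. The log2 fold change was -1.21 ± 0.25 (SE) for culture over fresh tissue (edgeR adjusted p = 0.000736) and -1.07 ± 0.25 for culture with EVs over fresh tissue (edgeR adjusted p = 0.00181).

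Of the 8 clearance and co-receptor genes, 3 were higher and 2 lower in both cultures against fresh tissue. That is 62.5% called, near the 54.3% of all tested genes in culture and 52.9% in culture with EVs. VLDLR, which takes up complexes of activators with their inhibitors, averaged 85.5 ± 8.22 CPM in culture with EVs, 97.4 ± 24.6 CPM in culture and 12.2 ± 6.04 CPM in fresh tissue (SD, n = 5 each). Its log2 fold change was 2.99 ± 0.29 (SE) for culture over fresh tissue (edgeR adjusted p = 8.65e-07) and 2.80 ± 0.29 for culture with EVs over fresh tissue (edgeR adjusted p = 1.46e-06). MRC2, the gene of a collagen receptor that associates with the urokinase receptor, was higher by 2.22 ± 0.49 in culture and 2.01 ± 0.48 in culture with EVs. LRP1, the main endocytic receptor for such complexes, was higher by 1.83 ± 0.29 and 1.62 ± 0.29. LRP2, the gene of megalin, fell by 1.70 ± 0.47 (SE) on the log2 scale in culture (edgeR adjusted p = 0.00617) and was at -1.67 ± 0.47 in culture with EVs (edgeR adjusted p = 0.00714). SORL1, the gene of a sorting receptor that also takes up such complexes, fell by 0.82 ± 0.19 in culture (edgeR adjusted p = 0.00228) and by 0.88 ± 0.19 in culture with EVs (edgeR adjusted p = 0.00131). Its groups overlapped, with fresh 3 at 227 CPM below culture 4 at 259 CPM and culture with EVs 4 at 233 CPM. In culture with EVs the value of MRC2 leaned on culture with EVs 2, at 99.6 CPM, and was 1.4 without it. LRPAP1, LRP8 and IGF2R were not called. LRP8 was called without fresh 5, at 1.07 in culture (edgeR adjusted p = 0.00152) and 1.13 in culture with EVs (edgeR adjusted p = 0.00108), and with limma-voom and quality weights, at 0.87 and 0.80 (limma adjusted p = 0.0135 and 0.0127). IGF2R was called in culture without culture 2, at 0.42 (edgeR adjusted p = 0.0184), and in culture with EVs with limma-voom, at 0.26 (limma adjusted p = 0.0446).

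Among the proteases upstream of the activators or of plasminogen, ST14, HPN and CTSB were higher in both cultures. CTSB, the gene of the lysosomal protease cathepsin B, averaged 932 ± 70.6 CPM in culture with EVs, 1019 ± 217 CPM in culture and 299 ± 51.3 CPM in fresh tissue (SD, n = 5 each). Its log2 fold change was 1.77 ± 0.16 (SE) for culture over fresh tissue (edgeR adjusted p = 4.56e-07) and 1.64 ± 0.16 for culture with EVs over fresh tissue (edgeR adjusted p = 9.04e-07). ST14, the gene of matriptase, which can activate urokinase, was higher by 1.94 ± 0.30 in culture and 1.59 ± 0.30 in culture with EVs, and HPN, the gene of hepsin, by 1.21 ± 0.25 and 1.05 ± 0.25. F12, of the contact pathway of coagulation, was low throughout and was called lower in both cultures. It was at 0.391 ± 0.309 CPM in culture with EVs, 0.508 ± 0.322 CPM in culture and 2.13 ± 0.498 CPM in fresh tissue. Its log2 fold change was -2.07 ± 0.74 (SE) in culture (edgeR adjusted p = 0.0280) and -2.42 ± 0.75 in culture with EVs (edgeR adjusted p = 0.0137). No cultured library reached the lowest fresh one. The call in culture with EVs was kept in 23 of 23 alternatives. KLKB1, which encodes plasma prekallikrein, was not called.

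Of the fibrin and cofactor genes, THBD, the gene of thrombomodulin, was higher in both cultures. It was at 39.8, 21.5, 30.8, 77.1 and 36.0 CPM in culture with EVs 1 to 5, at 29.8, 19.0, 25.9, 64.1 and 23.2 CPM in culture 1 to 5, and at 8.56, 8.19, 3.30, 16.5 and 4.59 CPM in fresh tissue 1 to 5. Number 4 was the highest library in all 3 groups. The log2 fold change was 1.98 ± 0.46 (SE) for culture over fresh tissue (edgeR adjusted p = 0.00185) and 2.32 ± 0.46 for culture with EVs over fresh tissue (edgeR adjusted p = 0.000601). Between the 2 cultures it was at 0.34 ± 0.44 (edgeR adjusted p = 1), higher with EVs in 5 of 5 same-numbered libraries, a count that was not tested. THBD and ENO1, at 0 of 5, were the listed genes at the extremes of this count. The share of all tested genes at such extremes was not computed, so nothing is read from either count.

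VTN, the gene of vitronectin, an adhesive protein of plasma and matrix, and FGB, the fibrinogen beta chain gene, were lower at low counts. VTN averaged 0.110 ± 0.162 CPM in culture with EVs, 0.277 ± 0.220 CPM in culture and 1.29 ± 0.718 CPM in fresh tissue, and FGB averaged 2.65 ± 2.69, 2.42 ± 2.55 and 9.29 ± 4.41 CPM in the same order (SD, n = 5 each). In culture with EVs against fresh tissue, the log2 fold change of VTN was -3.49 ± 0.88 (SE; edgeR adjusted p = 0.00376), and -4.81 without culture with EVs 2. The calls of VTN, FGB and F12 in culture against fresh tissue (edgeR adjusted p = 0.0320, 0.0330 and 0.0280) were each lost when single libraries were left out. The adjusted p then reached 0.0912 for VTN without fresh 2, 0.0754 for FGB without fresh 4, and 0.0573 for F12 without fresh 3. In culture with EVs against fresh tissue, FGB was called at -1.80 (edgeR adjusted p = 0.0441), and that call was lost in 11 of 23 alternatives, at an adjusted p of 0.0983 without fresh 4 and 0.0566 with no filter on low counts. Its log2 fold change there was -2.68 without culture with EVs 4. F13A1, the gene of the factor XIII A chain, was called lower in culture with EVs against fresh tissue, at -1.13 ± 0.33, and at -0.65 ± 0.32 in culture against fresh tissue it was not called. The gene was called in culture without culture 2 (-0.89, edgeR adjusted p = 0.0319), without fresh 3 (-0.80, edgeR adjusted p = 0.0471) and with limma-voom (-0.76, limma adjusted p = 0.0450). Between the 2 cultures it was at -0.48 ± 0.32 and not called.

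**Figure D5:**
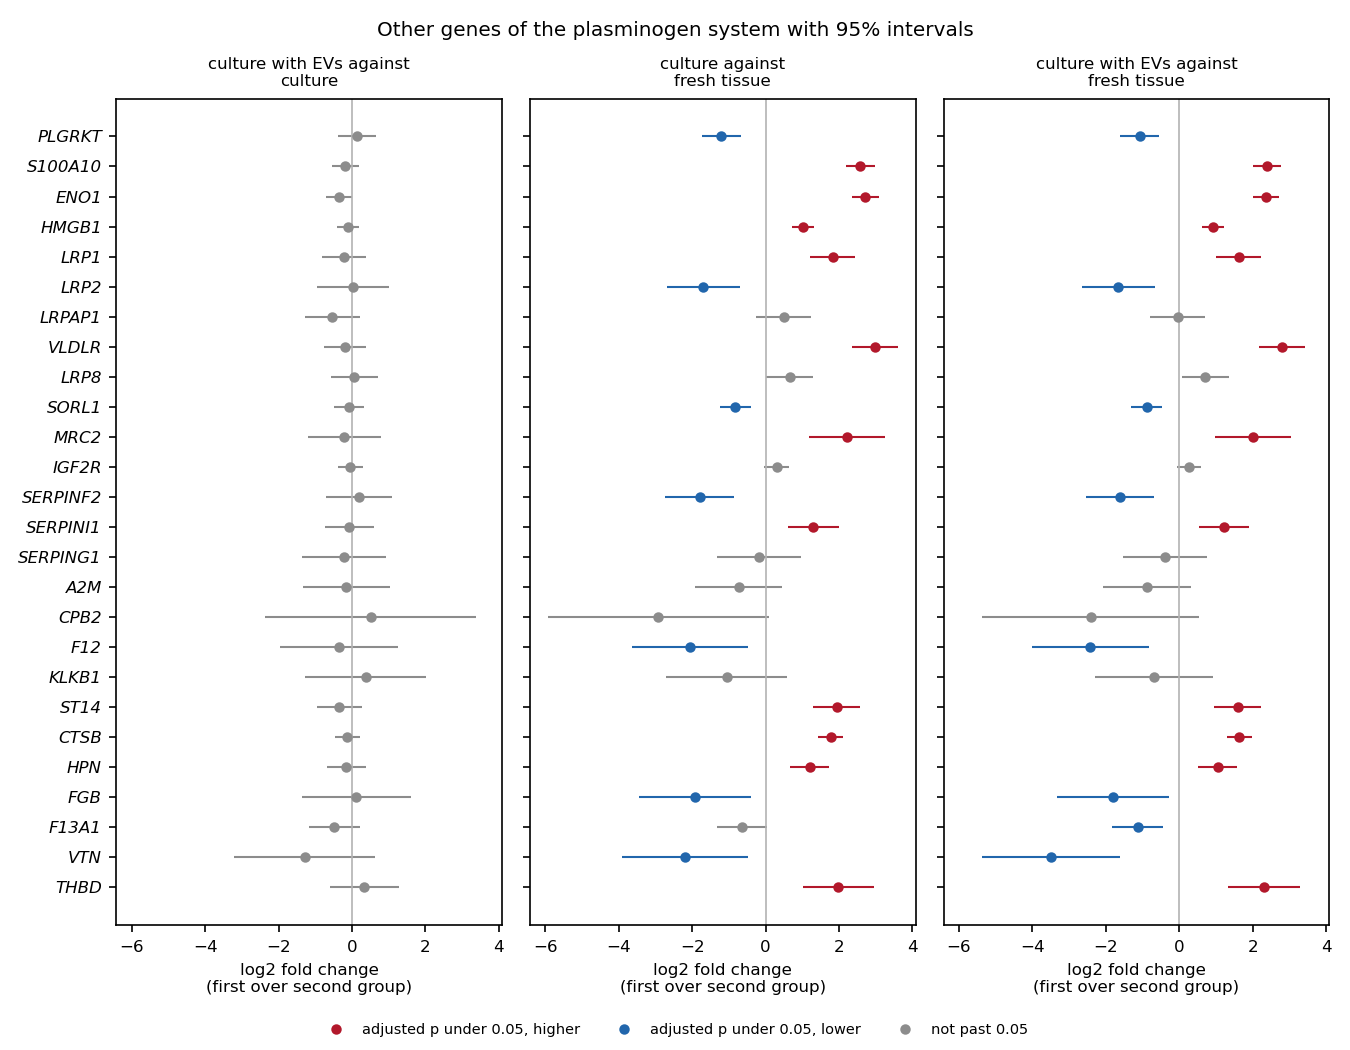
Fitted log2 fold changes with 95% intervals for the 26 tested genes of the plasminogen-system list in 3 comparisons, each the first-named group over the second, on a shared axis; red marks genes called higher, blue lower and grey neither. VLDLR is farthest to the right against fresh tissue, at 2.99 in culture and 2.80 in culture with EVs, and every gene is grey between the 2 cultures.

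For each of the 6 genes, up to 3 genes most like it were taken by Pearson's r of the log2 CPM deviations from the group means over the 15 libraries. The candidates were the 12367 or fewer tested genes with a symbol and a mean log2 CPM of at least 1. The values are the highest among so many and describe these libraries, which share their scaling and, between cultures, their numbers. PLAU was closest to ARHGAP21 (r = 0.928) and KIF3C (r = 0.887). PLAUR was closest to KLHL29 (r = 0.922), TUBB2B (r = 0.917), a tubulin gene, and CLCF1 (r = 0.904), a cytokine gene. PLAT had lower values, with PALM2AKAP2 (r = 0.836), CEACAM1 (r = 0.824) and RASSF3 (r = 0.801).

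ANXA2 was closest to KCTD5 (r = 0.849), EDEM2 (r = 0.845) and PTK2B (r = 0.829). SERPINE2 was closest to TRIL (r = 0.836), RBP4 (r = 0.827), the retinol-binding protein gene, and CPE (r = 0.806), a carboxypeptidase gene. SERPINB2 was closest to TIMM8B (r = 0.909), SPN (r = 0.885), a leukocyte surface gene, and MMP9 (r = 0.884), a matrix metalloproteinase gene. No gene named was listed for more than 1 of the 6, and its r with the other members was not looked at.

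Markers of epididymal cell types differed between cultured and fresh tissue, and their part in the differences above was not tested. The summed level of the 6 markers of principal cells, the main absorptive and secretory cells of the epididymal duct, was 2087 to 3415 CPM in culture with EVs, 967 to 3179 CPM in culture and 17910 to 21865 CPM in fresh tissue. All 6 were called lower in both cultures, against 25.6% of all tested genes in culture and 25.5% in culture with EVs. The 4 basal cell markers in the table summed to 1326 to 4229 CPM in culture with EVs, 1627 to 5347 CPM in culture and 275 to 524 CPM in fresh tissue. All 4 were called higher in both cultures, against 28.7% of all tested genes in culture and 27.4% in culture with EVs.

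Cell types that are known sources of activators and serpins elsewhere were covered too. Over all tested genes, 28.7% were called higher in culture than in fresh tissue and 27.4% in culture with EVs. The counts below stand beside those shares, and no shift of a cell type is read from them. The 8 endothelial markers summed to 360 to 799 CPM in culture with EVs, 443 to 626 CPM in culture and 261 to 350 CPM in fresh tissue, and 4 of 8 were called higher in each culture against fresh tissue. The 7 fibroblast markers summed to 943 to 8599 CPM, 1236 to 12321 CPM and 525 to 2024 CPM in the same order, with 3 of 7 called higher in each culture. The 8 macrophage markers summed to 62.3 to 121 CPM, 69.5 to 159 CPM and 33.1 to 65.4 CPM, with 3 of 8 called higher in each culture and 1 of 8 lower in culture with EVs. The 5 smooth muscle markers summed to 542 to 3579 CPM, 987 to 3551 CPM and 585 to 1492 CPM, with 1 of 5 called higher in each culture. The 6 neutrophil markers summed to 6.71 to 13.7 CPM, 7.70 to 9.97 CPM and 4.90 to 8.89 CPM. In culture with EVs, 1 of the 3 with enough counts was called higher and 1 lower than in fresh tissue, and in culture 2 and 1. Of the neutrophil markers, 1 had 0 counts in every library of culture with EVs and 1 had 0 in every library of culture. No marker of the other lists found in the table was at 0 throughout a group. Between culture with EVs and culture, 0 markers of any of these lists were called.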

How the data were processed

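Gene counts of 15 libraries from cat corpus epididymis were analysed as deposited: raw counts per gene, which the authors deposited as 1 table of 38995 genes. Per the labels' protocols, RNA came from a Qiagen kit and the libraries from a stranded TruSeq mRNA kit. StringTie 2.1.3b, Bowtie2 2.3.4.1, HISAT2 2.1.0 and Trimmomatic 0.38 appear in the submitters' processing notes without a stated role. No label, header or note names the genome build, annotation, counting program, strand setting or treatment of multiply matching reads, so reads of overlapping genes or similar copies may not have been told apart. All 38995 gene identifiers matched a RefSeq table of assembly F.catus_Fca126_mat1.0, used for names only. No sequences, positions or transcript lengths were used.

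The filterByExpr filter (minimum count 10, minimum total 15) kept 18038 genes. TMM factors (trimmed mean of M values) gave the library sizes, and edgeR 4.0.16 (R 4.3.3; glmQLFit and glmQLFTest, 2-sided) fitted the counts, with the group as the only term, all 15 libraries in 1 fit and 12 residual degrees of freedom. Adjusted p-values are Benjamini-Hochberg values over the 18038 genes, called under 0.05. A log2 fold change is the first-named group over the second, each standard error is the absolute log2 fold change over the square root of F, and intervals are 95%. CPM are counts over the scaled library size; log2 CPM for likeness used a prior count of 2. The fitting steps were tested on simulated data.

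The members and lists were chosen with earlier results of these data known. Named genes are the 6 members; every called gene of the plasminogen-system list, up to 4 per direction with full statistics; PLG, S100A10, SERPINF2 and ENO1 whatever their values; and 3 like genes per member. A gene of the list and a like gene of PLAU are not reported here, no other gene took their place, and the list is counted without the first. List genes with no call were named so that every listed gene is accounted for. Full statistics of 2 further called genes (THBD and F12) were added after their values were seen. So were the adjusted p-values of FGB and VTN in culture.

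Whether numbers pair the libraries was checked by correlating deviations from group means. Same-numbered libraries correlated at 0.181 to 0.602 between the 2 cultures and at 0.242 to 0.362 between culture with EVs and fresh tissue, over 0.1 in all 5 pairs, so these numbers were taken to pair libraries. The pairing comes from the data, since no label gives it. The main fit does not use it, so its p-values, standard errors and intervals are unpaired. The number enters only as a block among the alternatives. Alternatives were DESeq2 1.42.0, limma-voom (limma 3.58.1) with quality weights, other scalings, no filter, a filter of 1 CPM in 5 libraries, the number as a block, each library left out in turn and, added after seeing the data, total counts alone.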

Additional observations from a re-analysis of the deposited data

Results flagged for a closer look

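In 96 groups of 5 libraries (the 6 genes and the 26 of the wider list, in 3 groups each), 7 held a library whose gap to its nearest neighbour exceeded 0.71 of the group's range, the Dixon limit for 5 values, which chance exceeds in about 1 of 20 groups. Among the 6 genes this was SERPINE2 in culture with EVs 1, at 33.3 CPM against 66.2 to 85.7 CPM in the other 4. The same number was the lowest in culture, at 28.9 CPM. Of the wider list, LRPAP1 was at 161 CPM in culture with EVs 2, against 76.8 to 89.4 CPM. FGB was at 7.44 CPM in culture with EVs 4, against 1.01 to 1.69 CPM. VLDLR was at 141 CPM in culture 3, the library with few mitochondrial counts, against 81.9 to 93.6 CPM. F12 had 0 counts in culture 4, against 0.474 to 0.882 CPM. SORL1 was at 227 CPM in fresh 3, against 354 to 394 CPM. SERPINF2 was at 46.3 CPM in fresh 5, against 89.4 to 109 CPM. None was tested further.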

How the results depend on the processing

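The 6 genes gave 414 values over the alternatives, of which 396 kept their sign and 18 changed it, all between the 2 cultures and all uncalled. Against fresh tissue the adjusted p of SERPINB2 was above 0.05 in 2 of them, at 0.0786 in culture with limma-voom and 0.0535 in culture with EVs without culture with EVs 3. PLAU, at 0.01 there, was -0.01 with DESeq2 and with RLE scaling and ran between -0.12 and 0.31 over single libraries left out; PLAT, at 0.05, ran between -0.11 and 0.18; ANXA2, at -0.03, was 0.13 with limma-voom and 0 with total counts alone and ran between -0.12 and 0.05; SERPINB2, at -0.66, was 0.65 with limma-voom. The listed genes of the rest of the system gave 1261 values, of which 26 lost a call, 16 gained one and 11 changed sign. With limma-voom S100A10 was at 0.08 and SERPINF2 at -0.01, and over libraries left out SERPINF2 ran between -0.32 and 0.59. Against fresh tissue, LRPAP1 was -0.18 in culture with limma-voom and ran between -0.06 and 0.65 in culture and between -0.30 and 0.02 in culture with EVs, SERPING1 in culture between -0.66 and 0.06, and KLKB1 in culture with EVs between -1.13 and 0.16. The number of list genes lower in culture than in fresh tissue ran between 4 and 7 over libraries left out. With the number as a replicate block, 0 genes were called between the 2 cultures, with 206 at an unadjusted p under 0.05. Between culture and fresh tissue, number 3 correlated at 0.033 only and 4 of 5 libraries correlated best with their own number; there the block added LRP8 (0.72), A2M (-0.86) and CPB2 (-3.76) to the called list genes and left all 6 genes past the threshold. No scaling moved the median of all genes past -0.09. The cause of these changes was not tested. Depth limits SERPINB2, at 2 to 32 counts in fresh libraries, and F12 and VTN, which had 0 counts in at least 1 cultured library.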
